A study of Mus musculus domesticus with 6 samples.

Results

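The cytoplasmic ribosomal protein genes of mouse fetal liver red cell progenitors are described here, with each gene's level in every library and its difference between progenitors with and without deletion of Exosc3, a subunit of the RNA exosome. Members were all protein-coding genes whose symbol is Rpl or Rps followed by a number with its suffix letters, Rplp0 to Rplp2, or Rpsa, with pseudogenes left out. There were 84 members among the 55359 genes of each table, 32 of the small subunit and 52 of the large subunit, and 6 further matching symbols were left out because the annotation calls them pseudogenes. Of the 84 members, 7 are paralogs, later copies of a ribosomal protein gene, and 22 are genes whose human counterparts are mutated in Diamond-Blackfan anemia. The measured samples were BFU-E, early progenitors committed to the red cell lineage, sorted from E14.5 fetal livers as GFP+ Lin- Kit+ cells low for CD24 and CD71. One group was Exosc3 fl/fl Cre- and the other Exosc3 fl/fl Cre+, with 3 libraries each, and the strain is given as Exosc3-floxed and Vav1-Cre. Both groups therefore carried the floxed alleles, and they differed in Vav1-Cre, a recombinase driven by a promoter active throughout blood cells. The 6 samples came from 3 litters with 2 samples each, and p-values measure only the spread between these samples.

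The cytoplasmic ribosome joins a small subunit, which reads the messenger RNA, to a large subunit, which forms peptide bonds. Its proteins are made in matched amounts, and their messenger RNAs are among the most abundant of a growing cell. Red cell progenitors are known for their dependence on them: loss of a single copy of one of several of these genes causes Diamond-Blackfan anemia, a failure of red cell production. Unassembled Rpl5 and Rpl11 bind Mdm2, the ubiquitin ligase of p53, and thereby link ribosome assembly to p53. Most ribosomal protein messenger RNAs begin with a C and a run of pyrimidines, the terminal oligopyrimidine tract, through which growth signals control their translation.

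The first 25 bases of annotated transcripts were compared to see this shared feature, which the choice of members did not use. They are printed 5′ to 3′ from GENCODE M21, an annotation of GRCm38, with capitals marking the first C followed by at least 4 bases that are each C or T. Shown are some of the members at the top of the level order and some of those with the smallest p or a paralog. Not every such member is shown, and capitals are more frequent among these starts than among all members, given below.
Rplp1: gatCTTTTCCTCagctgccgccaag
Rpl13a: agaaaccctgcgacaagaCCTCCTC
Rpl37: CTCTTCCggtctctttggcctcgcc
Rpl22: gCCCCCCTCCCTTTCTgcctcctct
Rpsa: gaggCTTTTTCCggagcggaagttc
Rps23: cctgaaaaggaaataacagcgtaaa
Rps7: ccacctaCTTCCgctgtccccacct
Rps27a: tttccgatccgccatcgtgggtgag
Rps27: gCTCCTTTCCggcggtgacgacctc
Rps27l: gCCTCTatcccggaagttgctgagg
A transcript with a start on record was found for 78 members. The pattern stood at the first base in 10 of them (12.8%), against 2.20% of 17176 protein-coding genes, and on the transcript strand within the first 25 bases in 41 (52.6%), against 29.2%. Annotated starts can lie a few bases from the start used in these cells, and the absence of the letters says only that they are not in this window. The 10 members with the pattern at the first base had a median log2 fold change between groups of 0.09, and the 65 other tested members with a start on record had 0.04.

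The targeted gene was measured first. Exosc3 stood at 51.9, 44.3 and 48.0 CPM (read counts scaled to a fixed library total) in Cre- replicates 1, 2 and 3 and at 26.8, 22.1 and 30.2 CPM in Cre+ replicates 1, 2 and 3. The groups did not overlap and the Cre+ mean was 54.8% ± 8.47 (SD, n = 3) of the Cre- mean, with an adjusted p of 0.259 (edgeR quasi-likelihood test over 13117 genes). By DESeq2 it passed, at an adjusted p of 0.00325, and the alternatives gave 0.00325 to 0.582. Library totals ranged from 89629949 to 124931215 expected counts. Markers of erythroid progenitors (7 of 7 detected) summed to between 1119 and 1277 CPM in Cre- libraries and between 1147 and 1404 CPM in Cre+ libraries. The 6 neutrophil and monocyte markers summed to between 569 and 1472 CPM in Cre- and between 229 and 503 CPM in Cre+ libraries, and the 4 lymphoid markers to between 71.0 and 163 CPM and between 8.63 and 26.5 CPM. Of 4 macrophage markers Adgre1 and C1qa were at 0 in every library, and so were Afp and Ttr of 4 hepatocyte markers. All 4 macrophage markers summed to at most 3.73 CPM in Cre- and 2.05 CPM in Cre+ libraries. For the 4 hepatocyte markers the highest sums were 1.08 and 0.717 CPM. The 5 late erythroid markers summed to between 7.24 and 13.4 CPM in Cre- and between 8.98 and 37.2 CPM in Cre+ libraries. Megakaryocyte markers summed to between 32.8 and 69.9 CPM and between 35.4 and 75.5 CPM. The part of the lower neutrophil, monocyte and lymphoid signal in the values below was not tested. In such bulk samples fewer cells of a type cannot be told apart from less RNA per cell.

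The share of ribosomal protein messenger RNA in the transcriptome overlapped between the groups. Per length, in TPM (abundance per transcript length, scaled to a fixed total), the members summed to 16.93%, 18.003% and 16.88% of all TPM in Cre- replicates 1, 2 and 3 and to 17.9%, 17.7% and 17.4% in Cre+ replicates 1, 2 and 3. The Cre+ libraries all lay within the Cre- range, at a mean of 17.7% ± 0.233 against 17.3% ± 0.635 (SD, n = 3 each). Large subunit genes held 12.1% ± 0.202 of TPM in Cre+ and 11.8% ± 0.406 in Cre- libraries, and small subunit genes 5.56% ± 0.0319 and 5.45% ± 0.234. The summed TPM of the large subunit was 2.17 ± 0.0293 times that of the small subunit in Cre- and 2.18 ± 0.0241 times in Cre+ libraries. This ratio differed between groups by less than the spread between libraries. The share of TPM differed by 0.397 percentage points, which is below the SD of Cre- and above that of Cre+ libraries. With mitochondrially encoded genes left out of the total it was 19.2% ± 0.0456 in Cre+ and 18.5% ± 0.551 in Cre- libraries, a difference of 0.622 that exceeds both SDs, and the groups still overlapped. In reads rather than TPM the members held 6.12% ± 0.290 of the scaled total in Cre- and 6.36% ± 0.176 in Cre+ libraries. All these values are relative to the library, so a change in the RNA content of the whole cell would not appear in them.

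**Figure D1:**
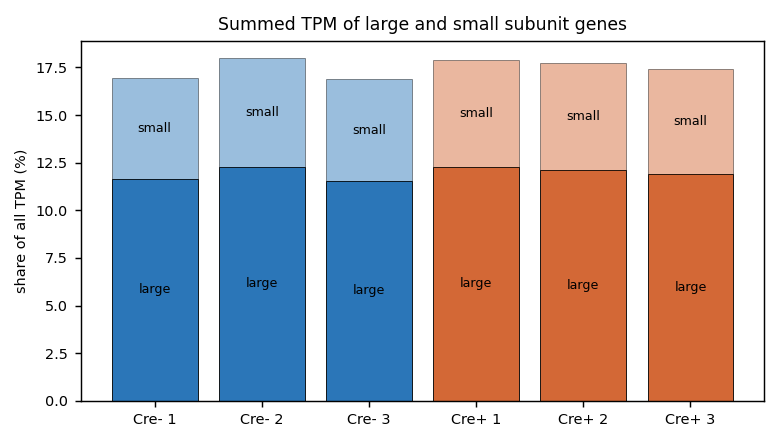
Share of all TPM (percent, vertical axis) held by large subunit genes (lower, darker bar) and small subunit genes (upper, lighter bar) in each Cre- (blue) and Cre+ (orange) library. The stacked totals run from 16.88% to 18.003%, and the 3 Cre+ totals lie inside the range of the 3 Cre- totals.

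Levels of single members were far from equal, although their proteins are needed in matched amounts. All of the 77 members that are not paralogs were detected in every library, and in Cre- libraries their mean levels ran from 285 to 9363 TPM, a 32.9-fold range with a median of 1616 TPM. In the large subunit Rplp1, an acidic protein of the stalk that recruits translation factors, was highest at 9363 ± 584 TPM. Rpl13a, a surface protein also known for a role in selective translational silencing, followed at 9227 ± 133 TPM. These 2 levels differed by less than the spread of Rplp1 between libraries. Next came Rpl37, a zinc-binding protein of the large subunit, at 8074 ± 358 TPM, and Rpl26, a Diamond-Blackfan anemia gene, at 7938 ± 347 TPM (SD, n = 3 each), again closer together than their libraries. Rpl37a, another zinc-binding protein of the large subunit, was lowest of the 77 at 285 ± 58.4 TPM.

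Small subunit genes reached lower maxima. Rpsa, a surface protein of the small subunit first known as a laminin receptor, led at 4860 ± 63.1 TPM in Cre- libraries. Rps23, a protein of the decoding centre, stood at 4579 ± 233 TPM (SD, n = 3 each), and the libraries of these genes overlapped. Rps16 was the lowest small subunit gene outside the paralogs, at 342 ± 24.1 TPM, followed by Rps3, which lines the messenger RNA entry channel, at 354 ± 45.04 TPM. A level in TPM also carries how reads were shared with pseudogenes and which transcript was assumed, so this order describes the deposited estimates.

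The order of levels was nearly the same in Cre+ libraries. Across the 81 detected members, log2 mean TPM of the groups correlated at r = 0.990 (Spearman rho = 0.991), and any pair of libraries at r = 0.967 to 0.987. These are descriptions across genes that share libraries. Only Rps7 and Rps15a moved by at least 10 places, Rps7 from place 47 to 58 and Rps15a from 23 to 33. Rps15a varied more within each group than between them, with 2135, 3198 and 1394 TPM in Cre- and 1262, 1583 and 2509 TPM in Cre+ replicates 1, 2 and 3.

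**Figure D2:**
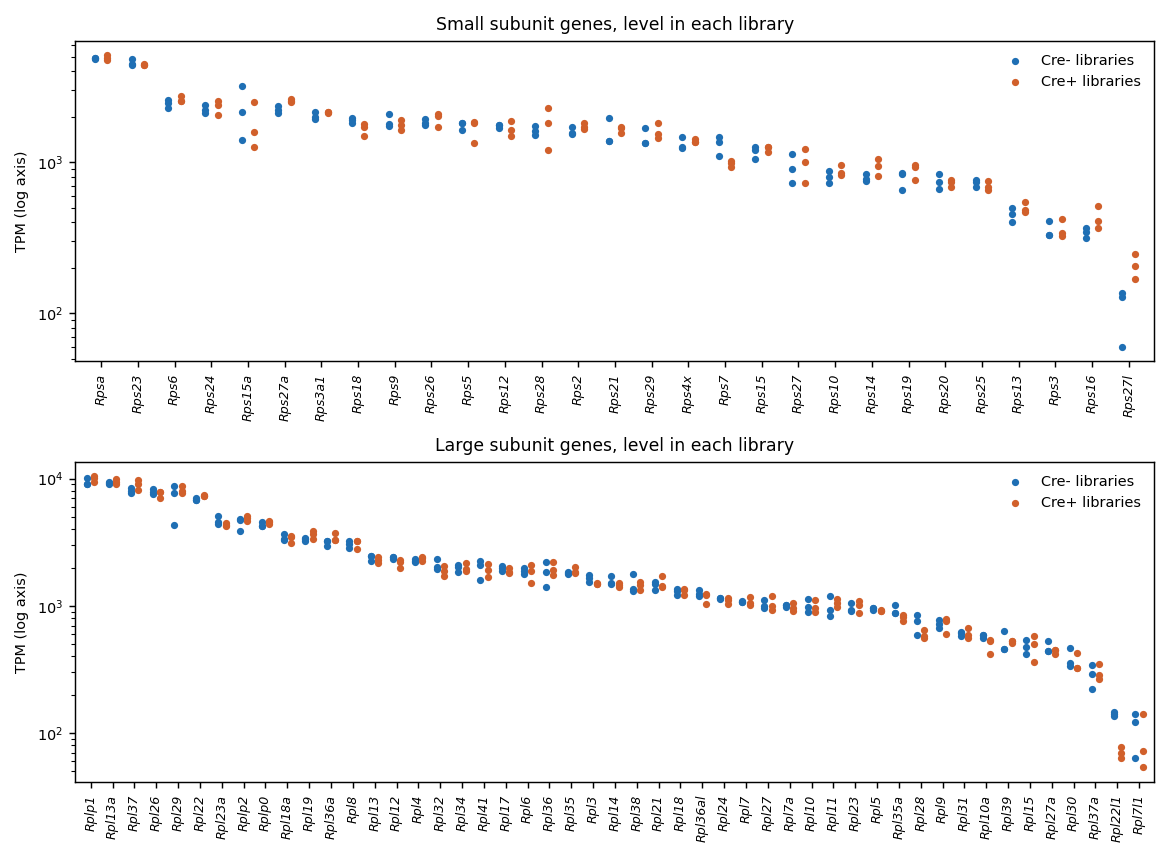
Level of detected members in TPM, without a few not reported here, (log axis) in every Cre- (blue) and Cre+ (orange) library, small subunit above and large subunit below, ordered by mean level in Cre- libraries. Outside the paralogs the Cre- means span 285 to 9363 TPM, and the Cre- and Cre+ points of nearly all genes lie side by side.

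The comparison of Cre+ with Cre- libraries asks how each gene's messenger RNA differs when Exosc3 is deleted in blood cells. No ribosomal protein gene passed. Of the 84 members 81 had enough reads to be tested, with mean counts from 2768 to 441421 per library, and 0 were called in either direction (edgeR, adjusted p under 0.05), where 0.122% of all 13117 tested genes were called. At an unadjusted p under 0.05 there were 5 members (6.17%), 3 of them higher in Cre+ (4.05% of all genes were) and 2 lower (4.19% of all), against 8.23% of all genes either way. DESeq2 called 2 members, Rps27a higher and Rps7 lower, and 3.50% of all genes, while limma-voom called 0 members. The members' share of low p-values was thus near or under that of all genes.

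The measurement was precise enough to bound these differences. Over the 81 tested members the median log2 fold change was 0.05, against -0.01 over all tested genes, and 74 members lay within 0.2 of 0 on the log2 scale. The 95% interval of the fold change lay inside a 2-fold change either way for 79 of 81 members (97.5%), all but the paralogs Rpl22l1 and Rps27l, and inside 1.5-fold for 76 (93.8%). The same held for 42.01% and 20.9% of all tested genes, and for 92.1% and 74.7% of the 1390 tested genes with a mean of at least 100 TPM in Cre- libraries. The median standard error of a member was 0.09 log2 units, against 0.38 over all tested genes. Among Cre- libraries the median coefficient of variation of a member was 6.63%, against 26.9% for all tested genes and 9.60% for those with at least 100 TPM. Rpl5 was the steadiest member in Cre- libraries, at 1341, 1330 and 1344 CPM.

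**Figure D3:**
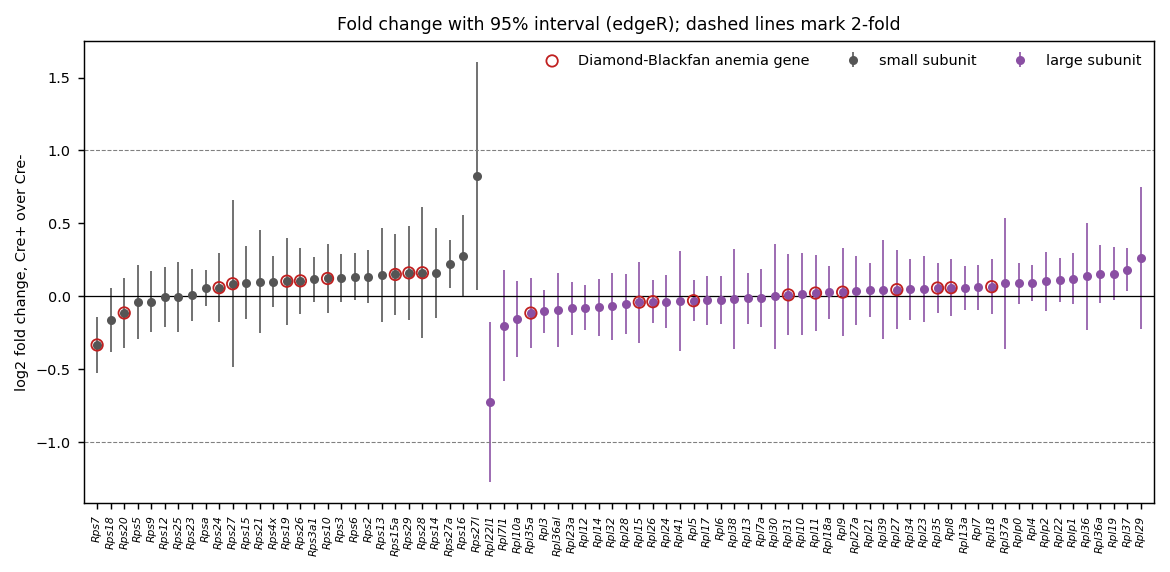
Log2 fold change of tested members, without a few not reported here, Cre+ over Cre- (points), with its 95% interval (vertical lines), sorted within the small (grey) and large (purple) subunit, with Diamond-Blackfan anemia genes circled and dashed lines at a 2-fold change. The intervals of Rps27l and Rpl22l1 cross a dashed line, and no other interval drawn does.

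Small and large subunit genes were also read apart. The 32 small subunit genes had a median log2 fold change of 0.10, with 25 positive, and the 49 tested large subunit genes had 0.02, with 27 positive. The difference between these medians was not tested, and the median of the small subunit genes varied by 0.05 (SD) between libraries of a group. In 15 of 81 members (18.5%) the groups did not overlap in CPM, where 15.2% of all tested genes were apart. Of these 15, 12 were higher in Cre+ (14.8%, against 7.53% of all genes) and 3 were lower (3.70%, against 7.66%). The small subunit held 8 of the 12, among them Rps3a1, Rps3, Rps6, Rps27a, Rps16 and Rps27l. The 4 in the large subunit were Rpl4, Rpl22, Rpl36a and Rpl37. Apart from Rps27l, the log2 differences of these 12 ran from 0.08 to 0.28.

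Among small subunit genes Rps7 had the smallest p. Rps7, a Diamond-Blackfan anemia gene whose free protein can also bind Mdm2, stood at 625, 570 and 653 CPM in Cre- replicates 1, 2 and 3 and at 512, 456 and 498 CPM in Cre+ replicates 1, 2 and 3. Every Cre+ library lay below every Cre- library, and the means were 489 ± 29.3 and 616 ± 42.01 CPM (SD, n = 3 each), a ratio of 0.793. On the log2 scale the difference was -0.33 (standard error 0.09, 95% interval from -0.53 to -0.14), and it did not pass (edgeR adjusted p = 0.266). By DESeq2 it passed, at an adjusted p of 0.00136, and the alternatives gave 0.00136 to 0.758. Its 2 named pseudogenes had 0 counts in all 6 libraries. The expected count of Rps7 was not whole in any of the 6 libraries, so some of its reads were shared with other genes. In TPM Rps7 was likewise lower in all Cre+ libraries, at 994, 924 and 1015 against 1367, 1102 and 1459.

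Rps27a makes a small subunit protein fused to ubiquitin, from which free ubiquitin is cut. It stood at 677, 735 and 725 CPM in Cre- replicates 1, 2 and 3 and at 854, 789 and 851 CPM in Cre+ replicates 1, 2 and 3. The Cre+ libraries were all above the Cre- libraries, by a ratio of 1.17 between means. On the log2 scale the difference was 0.22 (standard error 0.07, edgeR adjusted p = 0.395). By DESeq2 it passed, at an adjusted p of 0.0307, and the alternatives gave 0.0307 to 0.871. Rps16, which reaches toward the decoding centre, averaged 144 ± 8.91 CPM in Cre+ and 119 ± 12.7 CPM in Cre- libraries (SD, n = 3 each). Its log2 fold change of 0.28 had a standard error of 0.12 (edgeR adjusted p = 0.616). Rps6, the substrate of S6 kinase, differed by 0.13 on the log2 scale (95% interval from -0.03 to 0.29).

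Rpsa and Rps23, among the most abundant small subunit genes, differed little between groups. Rpsa averaged 4124 ± 161 CPM in Cre+ and 3964 ± 113 CPM in Cre- libraries, and Rps23 averaged 1828 ± 139 and 1814 ± 132 CPM (SD, n = 3 each). Their 95% intervals on the log2 scale ran from -0.06 to 0.18 and from -0.17 to 0.19. A change of 1.5-fold in either gene therefore lay outside its interval. The sign of Rps23 was not stable over the alternatives.

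In the large subunit Rpl22l1 and Rpl37 had the smallest p, and Rpl22l1 is described with the paralogs. Rpl37 stood at 3424, 3575 and 3624 CPM in Cre- replicates 1, 2 and 3 and at 3707, 4005 and 4334 CPM in Cre+ replicates 1, 2 and 3. The groups were apart by a narrow gap, differing by 0.18 on the log2 scale (standard error 0.07, edgeR adjusted p = 0.466), and in TPM they overlapped. Rpl19, whose protein helps bridge the subunits, averaged 1379 ± 123 CPM in Cre+ and 1238 ± 59.0 CPM in Cre- libraries (edgeR adjusted p = 0.711). Rpl36a averaged 552 ± 51.5 and 497 ± 19.0 CPM (edgeR adjusted p = 0.793).

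The stalk genes had overlapping groups. Rplp0, which holds the stalk to the large subunit, averaged 4180 ± 192 CPM in Cre+ and 3932 ± 232 CPM in Cre- libraries. Rplp1 averaged 1703 ± 111 and 1567 ± 119 CPM, and Rplp2 735 ± 52.8 and 685 ± 57.0 CPM (SD, n = 3 each). Their log2 fold changes of 0.09, 0.12 and 0.10 did not pass (edgeR). Rpl13a and Rpl26, among the most abundant members, had log2 fold changes of 0.06 and -0.04, with 95% intervals from -0.09 to 0.21 and from -0.19 to 0.11. Rpl3, a core protein of the peptide-bond forming centre, was the remaining member with all Cre+ libraries below all Cre- libraries, at 1436, 1386 and 1394 against 1439, 1601 and 1484 CPM, which is a log2 difference of -0.10 (standard error 0.07).

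One library moved some members. Rpl29, a large subunit protein, stood at 2738, 3124 and 1484 CPM in Cre- replicates 1, 2 and 3 and at 2937, 3123 and 2753 CPM in Cre+ replicates 1, 2 and 3. Cre- replicate 3 was alone low, and the log2 fold change of 0.26 was 0.00 without it. Rps27l was also lowest in that library, and Rps28 was lowest in Cre+ replicate 3, at 108 CPM against 164 and 203 CPM. No other tested member had a library more than 1.5-fold from both others of its group.

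**Figure D4:**
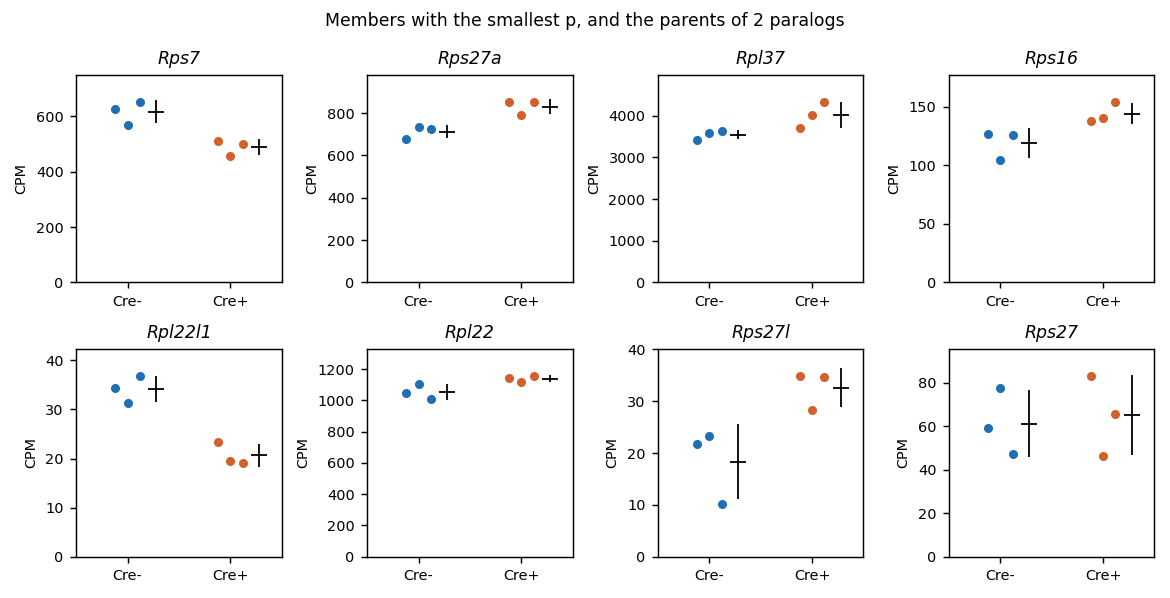
Level in CPM (vertical axes start at 0) in each Cre- (blue) and Cre+ (orange) library for members with the smallest p and for Rpl22 and Rps27, the parents of Rpl22l1 and Rps27l, with the mean and SD in black. Rps7 and Rpl22l1 are lower in all Cre+ libraries, while Rps27a, Rpl37, Rps16, Rpl22 and Rps27l are higher in all of them and Rps27 overlaps.

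Of the Diamond-Blackfan anemia genes, Rps7 alone had an unadjusted p under 0.05. All 22 were tested, 11 in each subunit, and edgeR called 0 (0.122% of all genes were called). An unadjusted p under 0.05 was found for 1 (4.55%, against 8.23% of all genes). DESeq2 called that 1 (4.55%, against 3.50% of all genes). The groups did not overlap for 2 of 22 (9.09%), 1 higher and 1 lower, against 13 of the 59 other tested members (22.03%), 11 higher and 2 lower, and 15.2% of all genes. That difference was not tested. Their median log2 fold change was 0.06, against 0.04 over the 59 other tested members, and 16 of 22 were positive. Summed, they held 3.84% of TPM in Cre- and 3.82% in Cre+ libraries. Rps19, the gene most often mutated in the disease, stood at 298, 364 and 253 CPM in Cre- replicates 1, 2 and 3 and at 299, 339 and 345 CPM in Cre+ replicates 1, 2 and 3. These values overlapped, and the 95% interval of the log2 fold change ran from -0.20 to 0.40. After Rps7, the smallest p in the list belonged to Rps15a and Rps10, with edgeR adjusted p of 0.914 and 0.923. All 22 intervals lay inside a 2-fold change.

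Rpl5, Rpl11 and Rpl23, whose proteins bind Mdm2, had overlapping groups. Rps7, whose free protein can also bind Mdm2, was lower in all Cre+ libraries, as given above. Members with this trait were not listed in full, so these genes do not stand for all of them. Rpl5 averaged 1310 ± 48.4 CPM in Cre+ and 1339 ± 7.15 CPM in Cre- libraries, and its partner Rpl11 averaged 379 ± 24.99 and 373 ± 54.9 CPM (SD, n = 3 each). Rpl23 averaged 493 ± 35.7 and 477 ± 51.9 CPM. Their log2 fold changes were -0.03, 0.02 and 0.05, with 95% intervals from -0.17 to 0.11, from -0.24 to 0.28 and from -0.18 to 0.27. In the same libraries Mdm2 itself averaged 122 ± 31.0 CPM in Cre+ and 58.7 ± 9.48 CPM in Cre- libraries, which did not pass in the main test (edgeR adjusted p = 0.154). It passed by DESeq2 (adjusted p = 6.55e-06) and with the replicate number as a block in edgeR (adjusted p = 0.0272), in alternatives that gave 6.55e-06 to 0.642. Trp53, which encodes p53, averaged 279 ± 5.89 and 241 ± 3.53 CPM (edgeR adjusted p = 0.559). Its Cre+ libraries all lay above its Cre- libraries.

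The paralogs Rpl22l1 and Rps27l held the widest differences of the family. The other tested paralogs, Rpl36al and Rpl7l1, had log2 fold changes of -0.09 and -0.20. The 4 tested paralogs were measured less precisely, with a median standard error of 0.21 log2 units, against 0.09 for the members that are not paralogs. Rpl22l1, a paralog of Rpl22 whose messenger RNA is known to be repressed by the Rpl22 protein, stood at 34.3, 31.4 and 36.8 CPM in Cre- replicates 1, 2 and 3 and at 23.3, 19.5 and 19.2 CPM in Cre+ replicates 1, 2 and 3. All Cre+ libraries lay below all Cre- libraries, with a ratio of means of 0.605 and a log2 fold change of -0.73 (standard error 0.24, edgeR adjusted p = 0.411, and 0.0554 to 0.686 under the alternatives). In TPM the gap was wider, at 142, 137 and 145 against 64.0, 70.1 and 78.0. Rpl22, one of the most abundant members, stood at 1044, 1107 and 1011 CPM in Cre- and at 1145, 1115 and 1156 CPM in Cre+ replicates 1, 2 and 3, just above in every library (log2 fold change 0.11, standard error 0.07).

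Rps27l is a paralog of Rps27 and a known p53 target gene. It stood at 21.7, 23.3 and 10.1 CPM in Cre- replicates 1, 2 and 3 and at 34.9, 28.2 and 34.7 CPM in Cre+ replicates 1, 2 and 3. The Cre+ libraries were all higher, with a ratio of means of 1.77 and a log2 fold change of 0.83 (standard error 0.35, edgeR adjusted p = 0.572, and 0.154 to 0.697 under the alternatives). Without Cre- replicate 3 the log2 fold change was 0.53. Rps27 overlapped between the groups, at 61.2 ± 15.3 CPM in Cre- and 64.9 ± 18.4 CPM in Cre+ libraries (SD, n = 3 each).

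Ratios within a library set each paralog against its parent on the TPM scale. Rpl22l1 was at 2.08%, 1.93% and 2.15% of Rpl22 in Cre- replicates 1, 2 and 3 and at 0.875%, 0.957% and 1.04% in Cre+ replicates 1, 2 and 3. Rps27l was at 14.3%, 12.1% and 8.20% of Rps27 in Cre- and at 20.1%, 23.0% and 20.4% in Cre+ replicates 1, 2 and 3. The groups were apart for both pairs, and also for Rps4l against Rps4x, a copy that the annotation calls a pseudogene, at 5.96% ± 0.622 in Cre- and 7.82% ± 1.03 in Cre+ libraries (SD, n = 3 each). For each of these 3 pairs the two-sided exact permutation p was 0.1, which is the floor for 3 against 3 libraries, and 0.167 after adjustment over the 5 pairs tested. Rpl36al, a copy of Rpl36a, was at 40.1% ± 4.76 of Rpl36a in Cre- and 33.7% ± 3.15 in Cre+ libraries (exact p = 0.2), and Rpl7l1 was at 10.2% ± 3.91 and 8.24% ± 4.42 of Rpl7 (exact p = 0.7).

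**Figure D5:**
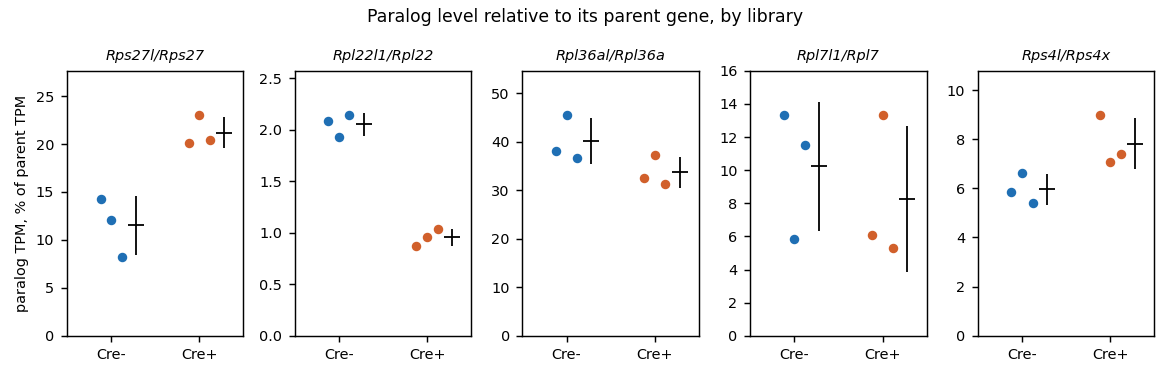
TPM of a paralog as a percentage of its parent's TPM (vertical axes start at 0) in each Cre- (blue) and Cre+ (orange) library, with the mean and SD in black, for 5 pairs. Rpl22l1 is near 2% of Rpl22 in Cre- and near 1% in Cre+ libraries, Rps27l is higher against Rps27 in all Cre+ libraries, and Rpl36al and Rpl7l1 overlap.

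Tissue-restricted paralogs were silent. Rpl3l, known from striated muscle, and Rpl10l and Rpl39l, known from testis, had 0 counts in all 6 libraries, which allows at most 0.0335 CPM in the smallest library when 3 counts are taken as the floor. That floor covers counting error of reads only. Rpl7l1, a paralog thought to act in ribosome assembly, stood at 141 ± 30.7 CPM in Cre- and 123 ± 15.0 CPM in Cre+ libraries, and Rpl36al at 240.5 ± 18.01 and 225 ± 23.5 CPM (SD, n = 3 each). Of the copies that the annotation calls pseudogenes, Rps4l averaged 40.1 ± 5.32 and 51.3 ± 10.0 CPM, Rps3a2 21.3 ± 3.26 and 29.9 ± 2.08 CPM, and Rps3a3 0.414 ± 0.236 and 0.675 ± 0.114 CPM. None of the 7 tested copies on the list passed (edgeR, where 0.122% of all genes were called). An unadjusted p under 0.05 was found for 2 (28.6%, against 8.23% of all genes), Rpl22l1 lower and Rps27l higher. DESeq2 called neither, where it called 3.50% of all genes.

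Reads of these genes are hard to place, because the genome holds many processed pseudogenes of them. Of the 81 tested members, 71 had an expected count that was not whole in at least 1 library, the sign of reads shared between genes, against 1722 of 13117 tested genes. The 300 pseudogenes with a symbol of this family summed to 0.110% of scaled reads in Cre- and 0.1004% in Cre+ libraries. Of 61 tested, edgeR called 0 and DESeq2 called 4, where DESeq2 called 3.50% of all genes. An unadjusted p under 0.05 was found for 4 (6.56%, against 8.23% of all genes). Per parent the named pseudogenes reached a median of 0.494% of the parent's CPM in Cre- libraries over 60 parents, and more than 10% for 6 parents, with the highest share, 31.0%, for Rps6.

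Of the 61 tested pseudogenes 32 were above 0 and 29 below 0 on the log2 fold change scale (median 0.06), and the values of the pair with the smallest p follow. Rps15a-ps7 stood at 24.9, 2.09 and 35.6 CPM in Cre- replicates 1, 2 and 3 and at 1.68, 0.757 and 1.81 CPM in Cre+ replicates 1, 2 and 3 (edgeR adjusted p = 0.235; DESeq2 4.28e-06, with 4.28e-06 to 0.652). Cre- replicate 2 was close to the Cre+ libraries. Rps13-ps1 averaged 17.99 ± 7.53 CPM in Cre- and 3.16 ± 1.56 CPM in Cre+ libraries (SD, n = 3 each; edgeR adjusted p = 0.214; DESeq2 6.98e-05, with 6.98e-05 to 0.552). Rps15a with its 8 named pseudogenes had a ratio of 0.975 between Cre+ and Cre- means, against 1.11 alone. For Rps13 the ratio was 1.03 with its named pseudogenes and 1.11 alone, and for Rps6 it was 1.05 with them and 1.10 alone. With them the Rps6 groups overlapped, at 1509, 1541 and 1601 CPM in Cre- and 1655, 1613 and 1594 CPM in Cre+ replicates 1, 2 and 3. So did those of Rpl3, by a narrow margin, at 1500.17, 1674 and 1550 CPM in Cre- and 1500.23, 1438 and 1447 CPM in Cre+ replicates.

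Transcript length, the mean over a gene's transcripts weighted by their estimated abundance, was compared as a separate measure. It moves when the mix of a gene's annotated transcripts moves. Of 77 members with a length that could vary, 0 were called by limma on log2 length, against 0.00% of 8739 genes, and 0 had an unadjusted p under 0.05, against 4.82% of all. The groups did not overlap in length for 7 members (9.09%), against 8.90% of all. Among the smallest p were those of Rpl27a and Rpl11, both with a limma adjusted p of 0.969. Rps15a ran from 325 to 450 bases without separating the groups, and its log2 difference was 0.15 in counts and -0.31 in TPM.

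Other genes of the translation machinery were read from lists. Of 3 ribosomal proteins whose genes carry other names none passed (edgeR; 0 at an unadjusted p under 0.05 and 0 by DESeq2), and among them Rack1 and Fau had log2 fold changes of 0.13 and 0.14. Rack1, a scaffold on the small subunit, averaged 1397 ± 44.5 CPM in Cre+ and 1277 ± 75.1 CPM in Cre- libraries (SD, n = 3 each). Of 28 other genes whose messages carry terminal oligopyrimidine tracts, such as elongation factors, 0 were called by edgeR. Their median log2 fold change was 0.02. The groups did not overlap for 4 (14.3%, against 15.2% of all genes), 1 higher and 3 lower. An unadjusted p under 0.05 was found for 2 (7.14%, against 8.23% of all genes), both higher. These were Gas5, a noncoding host of small nucleolar RNAs, at 258 ± 42.1 against 192 ± 31.3 CPM, and Eif3l, an initiation factor subunit, at 351 ± 18.4 against 304 ± 11.8 CPM in Cre+ and Cre- libraries. By DESeq2 Gas5 passed (adjusted p = 0.0458, with 0.0458 to 0.907 under the alternatives).

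Of 17 tested regulators of ribosomal protein messages edgeR called 0 and DESeq2 called 2 (11.8%), both lower in Cre+. Over all genes edgeR called 0.122%, and DESeq2 called 3.50% either way and 1.68% lower. An unadjusted p under 0.05 was found for the same 2, Myc and Eif4ebp1, against 8.23% of all genes either way and 4.19% lower. A positive log2 fold change was found for 11 of the 17, with a median of 0.05 over all 17. Myc, a transcription factor that drives ribosome production, stood at 337, 367 and 338 CPM in Cre- replicates 1, 2 and 3 and at 286, 254 and 232 CPM in Cre+ replicates 1, 2 and 3. All Cre+ libraries were below all Cre- libraries, with a log2 fold change of -0.43 (standard error 0.10, edgeR adjusted p = 0.225), and by DESeq2 it passed (adjusted p = 0.000426, with 0.000426 to 0.728 under the alternatives). Eif4ebp1, a translation inhibitor controlled by mTOR, averaged 37.6 ± 3.33 CPM in Cre+ and 59.2 ± 11.3 CPM in Cre- libraries (edgeR adjusted p = 0.368; DESeq2 0.0384, with 0.0384 to 0.737).

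Chaperones of ribosomal proteins and mitochondrial ribosomal proteins did not pass in edgeR. Of 16 chaperones and assembly factors 0 had an unadjusted p under 0.05, neither edgeR nor DESeq2 called one, and the median log2 fold change was 0.06. Grwd1, a chaperone of Rpl3, averaged 78.8 ± 12.8 CPM in Cre+ and 60.9 ± 16.7 CPM in Cre- libraries, and Nob1, the nuclease that finishes the small subunit RNA, 45.1 ± 2.98 and 30.8 ± 13.7 CPM (SD, n = 3 each). Of 78 mitochondrial ribosomal protein genes, which serve the separate ribosome of mitochondria, edgeR called 0 and DESeq2 called 1 (3.50% of all genes were). An unadjusted p under 0.05 was found for 7 (8.97%, against 8.23% of all genes), 2 higher and 5 lower. The median log2 fold change of the 78 genes was -0.07, and 31 were positive. Mrpl12 averaged 276 ± 47.8 CPM in Cre+ and 371 ± 56.5 CPM in Cre- libraries (edgeR adjusted p = 0.439; DESeq2 0.0267, with 0.0267 to 0.755), and Mrpl43 averaged 22.8 ± 2.62 and 36.6 ± 9.36 CPM (edgeR adjusted p = 0.535). Their median standard error was 0.27 log2 units, so these genes were bounded less tightly than the cytoplasmic ones.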

How the data were processed

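Libraries of total RNA from 6 sorted BFU-E samples were made with a stranded Takara Pico kit, per the labels. The submitters' processing notes name STAR 2.5.3a, RSEM 1.3.0 and the mouse build GRCm39. Neither annotation release nor strandedness setting is stated in those notes. The deposited tables give an expected count per gene, with TPM and FPKM scaled by the authors for length and library total, and a mean transcript length, per the file headers. Symbols matched 52081 of 55359 identifiers.

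Expected counts (2.64% not whole) were rounded, filtered by filterByExpr (13117 genes) and scaled by TMM (factors 0.988 to 1.017). Groups were compared with edgeR 4.0.16 in R 4.3.3, Benjamini-Hochberg over all genes, threshold 0.05. Standard errors are the log2 fold change over the square root of F, and 95% intervals use the test's degrees of freedom. TPM was tested with limma 3.58.1 only as an alternative. Lengths were tested with limma, and DESeq2 1.42.0 was an alternative. FPKM was not used. The tests were also run on simulated data, and the outcome is not given here.

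Gene types and transcript starts came from GENCODE M21, matched by identifier, and each start is from the first principal coding transcript. Since that annotation is on another build, no coordinates are given. Members and lists were chosen with earlier results of these data known. Named were Exosc3, in each subunit the 4 highest and 2 lowest detected members and the 4 with the smallest p, 4 Diamond-Blackfan anemia genes, all paralogs with reads, 2 genes per other list and 3 for length. Rps3, Rps6, Rps13, Rps19, Rpl7, Rps4x, Rps27, Rps28, Rpl3, Rpl5, Rpl22, Rpl23, Rpl29, Rpl37a, the stalk genes, the members listed as not overlapping, Fau, Mdm2 and Trp53 were named after their values were seen, and the transcript starts shown include some of these. Some genes that this rule names are not reported here.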

Additional observations from a re-analysis of the deposited data

How the results depend on the processing

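Over the alternatives, 0 ribosomal protein genes were called except by DESeq2, which called 2. Their median log2 fold change stayed within the spread between libraries, apart from the small subunit value when single libraries were left out (0.060 to 0.15, against 0.10). The large subunit value then ran from -0.012 to 0.074, so its sign is not stable. The summed level differed by 0.246 percentage points of scaled reads, and by 0.622 in TPM without mitochondrially encoded genes (SD 0.551 in Cre- and 0.0456 in Cre+). Over all genes the calls moved. Higher and lower calls numbered 235 and 218 by DESeq2, 33 and 6 without a count filter, and 58 and 26 at a mean of at least 1000 counts. On log2(TPM + 0.1) they numbered 31 and 28, on log2(TPM + 1) there were 8 higher, and with effective length offsets 6 higher. Leaving out single libraries gave 7 to 15 higher and 0 to 3 lower, with 7 higher without Cre+ replicate 2 and 8 without Cre+ replicate 1. Length calls over all genes were 0, with 0 to 3 when single libraries were left out and 2 at a TPM of at least 10, and 0 among members throughout.

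A replicate block in edgeR gave 38 genes higher and 18 lower, and 0 members. Same-numbered libraries deviated together only weakly (correlations 0.0260, 0.0534 and 0.0725), though each library correlated best with its own number, and no label ties the numbers to litters.

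Signs changed for members near 0. Rps23 (0.011) was -0.011 by library totals, -0.015 by effective length offsets, -0.046 in TPM with either pseudocount, and -0.054 to 0.065 when single libraries were left out. Rps15a (0.15) was -0.31 by effective length offsets and in TPM with either pseudocount. Rpl27a (0.037) was -0.067 by effective length offsets and -0.094 in TPM with either pseudocount, and ran from -0.029 to 0.13 when single libraries were left out. In the same way Rpl26 ran from -0.061 to 0.0029 and Rpl11 from -0.086 to 0.13. The cause of these changes was not tested. Reads were not counted by molecule, so depth overstates precision for low genes such as Rps27l.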
